A study of Mus musculus with 232 samples.

Results

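Oligodendrocyte precursor cells (OPC) made up 794 of the 24185 single cells profiled from the mouse dentate gyrus, the part of the hippocampus where granule neurons are born. They were taken as every cell to which the authors' deposited annotation gives the cluster name OPC, at all ages. The authors drew that cluster on the same counts, so levels of OPC marker genes beside other classes are given as a description, without a test. OPC numbered 2 at embryonic day E16.5, 61 at postnatal day P0, 171 at P5, 24 at P18, 27 at P19, 65 at P23, 383 at P120 and 61 at P132.

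The study collected dentate gyrus cells over development on droplets (10X Genomics Chromium, kit version 2), in which each captured transcript is counted once by a unique molecular identifier (UMI). CD-1 mice of unknown sex gave the perinatal samples (E16.5, P0, P5). The juvenile samples were CD-1 males at P18 and P23, and C57Bl/6 females at P19. Both adult ages carried the hGFAP-GFP transgene, in which a GFAP promoter drives green fluorescent protein. P120 pooled 2 males and 1 female, and P132 pooled 3 males and 1 female. Only the adult cells were sorted for fluorescence before capture, so adult age, line and sorting cannot be told apart. The labels do not say how many animals each unsorted age pooled. Each age was treated as 1 sample, so a p-value measures the spread between these pools.

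OPC are the dividing, migratory cells that give rise to oligodendrocytes, the myelin-forming cells of the central nervous system. They divide in response to platelet-derived growth factor through its receptor Pdgfra and carry the NG2 proteoglycan Cspg4 on their surface. On commitment they leave the cell cycle, pass through a stage marked by Gpr17 and Neu4 (newly formed oligodendrocytes, NFOL) and become mature oligodendrocytes (MOL) with high levels of myelin genes such as Mbp.

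Over all 8 ages, the summed OPC counts ran from 15679 UMIs at E16.5 to 785598 at P5, and the juvenile sums were small: 40663 at P18, 48680 at P19 and 226513 at P23. The median OPC held 3824 UMIs at P0 and 3993 at P5, against 1624, 1704 and 2968 at the juvenile ages and 1838 and 1423 at the adult ages, so depth per cell moved with stage. At P5, 53.8% of OPC held 3 or more UMIs of marker genes of neurons, microglia, vascular, ependymal or blood cells. That share was 16.4% at P0. It was 20.8%, 7.41% and 26.2% at the juvenile ages in order of age, and 3.92% (P120) and 6.56% (P132) in adults. Of the 794 OPC, 27 carried a cell barcode that also occurs in another library.

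The markers of OPC were high in these cells, which the clustering on the same counts could itself fix. Every OPC at P0 and later held at least 1 UMI of Pdgfra, Cspg4, Olig1 or Olig2. After each cell had been thinned to 1000 UMIs, from 60.7% (P0) to 100% (P19) of OPC held 2 or more of these 4 genes, against 0 of 2250 granule cells (class GC) at P132, which allows a share of up to 0.133% (3 counts of the total), and 0 of 1629, 990 and 1106 at the juvenile ages. At P0 and P5, 4.03% and 6.61% of astrocytes did so. Among classes with 20 or more cells, Pdgfra was highest in OPC at all 7 ages from P0 on, by at least 2.89-fold, with the vascular and leptomeningeal class nearest at P5. Cspg4 was highest by at least 3.43-fold. Olig1 was highest at all 7 ages, but only by 1.19-fold at P18, where MOL was nearest. Olig2 was highest at 6 of the 7 ages, and at P5 it stood at 0.979 of the NFOL level. Of 3691 genes with a mean of 50 CPM (counts per 1000000 UMIs) or more in OPC, 50 were highest in OPC at all 7 ages. They included Pcdh15, a protocadherin, Lhfpl3, the complement-like secreted protein C1ql1, and Spry1, a feedback inhibitor of receptor tyrosine kinases. Sox10, the transcription factor of the whole oligodendrocyte line, was higher in NFOL at P5, P18, P19, P23 and P132. These are all the ages with 20 or more NFOL. NFOL numbered 0 at P0 and 19 at P120, so they were not compared there for any gene of this paragraph.

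**Figure D1:**
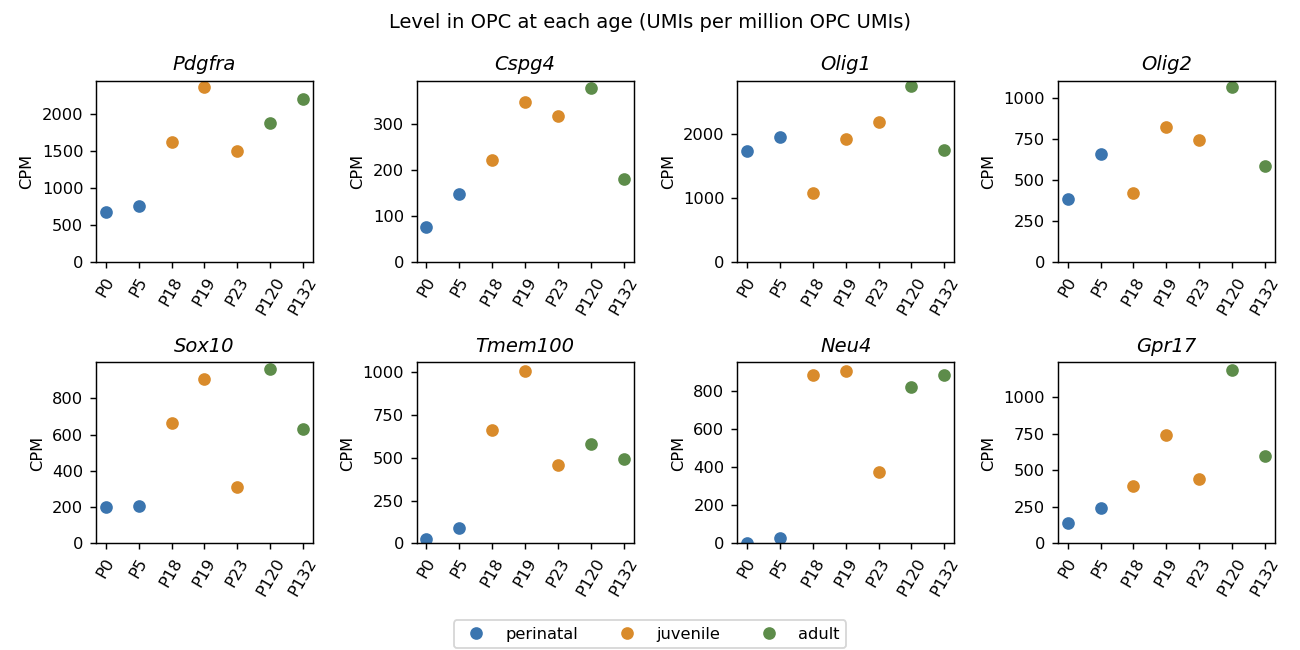
Level of 8 genes in OPC at each age, in CPM, 1 point per age and colours for stages; E16.5, with 2 cells, is left out. Pdgfra, Cspg4, Sox10, Tmem100, Neu4 and Gpr17 sit higher at all 3 juvenile ages than at P0 and P5, while Olig1 and Olig2 overlap.

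OPC were a small share of the unsorted cells at every age. They were 0.0875% of cells at E16.5 (exact Clopper-Pearson 95% interval 0.0106% to 0.316%), 1.28% at P0, 3.86% at P5, 0.885% at P18, 1.30% at P19 and 2.41% at P23. The mean was 1.74% ± 1.93 (SD, n = 3 ages) perinatally and 1.53% ± 0.787 (SD, n = 3) in juveniles, a difference of -0.210 percentage points (two-sided exact permutation test p = 0.9). Intervals here and below cover counting error only. Of the sorted adult cells, OPC were 28.1% at P120 but 1.59% at P132, with 1.31% and 1.87% in its separate libraries. The sort was on the same transgene at both ages, and its part in this gap was not tested.

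Within the oligodendrocyte line (OPC, NFOL and MOL together), OPC went from nearly all cells to a minority. Both cells of the line at E16.5 and all 61 at P0 were OPC. At P5 the line held 171 OPC, 33 NFOL and 1 MOL, so that OPC were 83.4% of it (95% interval 77.6% to 88.2%). At P18, P19 and P23 OPC were 14.4%, 20.8% and 19.5%, and MOL had become the most frequent class, with 112, 63 and 192 cells. The perinatal mean was 94.5% ± 9.58 and the juvenile mean 18.2% ± 3.39 (SD, n = 3 ages each). The difference of -76.3 percentage points gave p = 0.1 in the two-sided exact permutation test, which is the smallest p that 3 ages against 3 allow. The perinatal and juvenile ages did not overlap. In the sorted adult cells OPC were 64.9% of the line at P120 and 25.2% at P132.

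**Figure D2:**
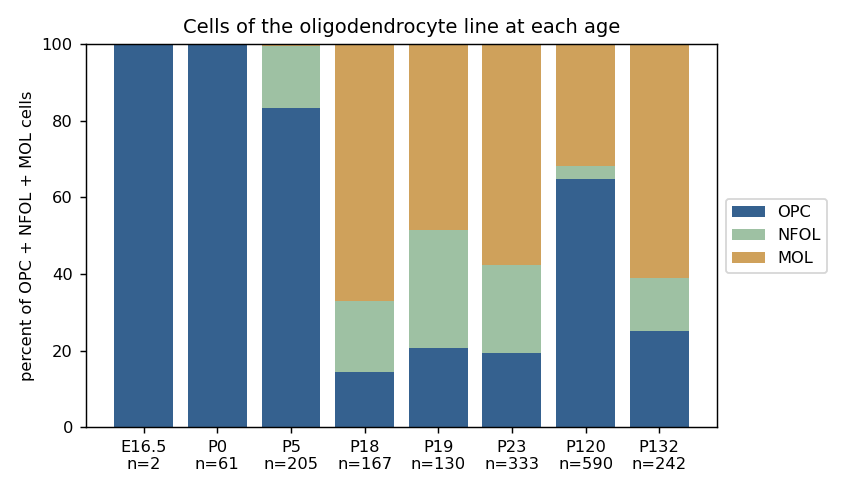
Percent of OPC, NFOL and MOL among the cells of the oligodendrocyte line at each age (stacked bars; n is the number of cells of the line). OPC are 100% of the line at P0 and 83.4% at P5, and between 14.4% and 20.8% at the 3 juvenile ages.

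What changed within OPC between the perinatal and juvenile ages was tested on counts summed over the OPC of each age (2 perinatal against 3 juvenile ages; edgeR quasi-likelihood test, Benjamini-Hochberg adjusted p under 0.05). E16.5 was left out because it had only 2 OPC. Of the genes tested in each list, 6 of 20 precursor identity, 5 of 12 commitment and 4 of 12 matrix genes rose. On the other side, 7 of 13 progenitor, 60 of 78 ribosomal protein and 10 of 19 translation factor genes fell. Of 4845 genes tested, 277 were called (5.72%), 118 higher in juvenile OPC (2.44%) and 159 lower (3.28%), with a median log2 fold change of -0.04 over all genes tested. DESeq2 called 58 higher and 137 lower. With libraries added together by age, the smaller juvenile sums limit what can be called. In counts simulated for this comparison, the test called 84.7% of genes changed 4-fold (2 on the log2 scale) and 15.4% of genes changed by 1 on that scale. The simulation gave every gene the same spread (dispersion 0.05), set by hand and not estimated from these sums, so these rates depend on it.

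Of 20 OPC identity genes, all tested, 6 rose and none fell, with a median log2 fold change of 0.71. The cluster was drawn on the same counts, so which cells count as OPC at each age can depend on these genes. Their p-values are not independent of that choice. In 11 of the 20 every juvenile age lay above both perinatal ages, against 19.6% of all genes tested (14.8% lay below). Pdgfra stood at 674 CPM at P0 and 760 at P5, and at 1623, 2362 and 1505 CPM at P18, P19 and P23. All juvenile ages lay above both perinatal ages, a log2 fold change of 1.18 ± 0.30 (SE; edgeR adjusted p = 0.0132). Cspg4 was at 76.2 and 148 CPM perinatally and at 221, 349 and 318 CPM in juveniles (1.20 ± 0.35, edgeR adjusted p = 0.0327). Sox10 was at 198 and 205 CPM and then at 664, 904 and 309 CPM (1.36 ± 0.37, edgeR adjusted p = 0.0223), with P23 nearest to the perinatal ages. Tmem100, a small membrane protein, was at 26.7 and 91.6 CPM and then at 664, 1007 and 459 CPM, a log2 fold change of 3.18 ± 0.42 (edgeR adjusted p = 8.1e-06). Emid1 (1.14) and Gjc3, the gap junction protein connexin 29 (2.68), were also higher, though Gjc3 overlapped between the stages, with 0 UMIs at P18.

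The basic helix-loop-helix factors that specify the line did not pass the test. Olig1 was at 1736 and 1964 CPM perinatally and at 1082, 1931 and 2199 CPM in juveniles (log2 fold change -0.22 ± 0.29). Olig2 was at 385 and 657 CPM and then at 418, 822 and 742 CPM (0.20 ± 0.33). For both genes the stages overlapped and the sign depends on which age is left out. The 2 OPC of E16.5 held 13 UMIs of Olig1 and 5 of Pdgfra, and none of Cspg4 or Sox10.

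Genes that mark commitment rose as well: 5 of 12 tested, of 16 in the list, with none lower. Neu4, a sialidase, was at 0 CPM at P0 and 30.5 at P5 and at 885, 904 and 375 CPM at P18, P19 and P23. Its log2 fold change of 4.82 ± 0.52 was the largest among the genes named here (edgeR adjusted p = 3.8e-07). In juvenile granule cells Neu4 stood at 1.90, 1.04 and 1.25 CPM. NFOL held more Neu4 than OPC: OPC were at 0.199 of the NFOL level at P5 and at 0.787, 0.674 and 0.622 at P18, P19 and P23. Gpr17, a G protein-coupled receptor of committed precursors, was at 137 and 242 CPM and then at 393, 740 and 441 CPM (1.24 ± 0.35, edgeR adjusted p = 0.0273). NFOL of the juvenile ages held over 3 times as much Gpr17 as OPC, with OPC at 0.307, 0.310 and 0.306 of the NFOL level. Lims2, an adaptor of cell-matrix junctions (1.20), the deacetylase Sirt2 (1.39) and the matrix protein tenascin-R, Tnr (1.87), rose too. Gpr17 and Lims2 have overlapping exons on opposite strands, and whether the counting used strand is not given in the sources used here.

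Of 12 matrix and proteoglycan genes tested, 4 rose and none fell: Cspg4, Tnr, versican (Vcan) and the hevin gene Sparcl1. Vcan was at 99.0 and 115 CPM perinatally and at 271, 514 and 313 CPM in juveniles, with no overlap (1.56 ± 0.35, edgeR adjusted p = 0.00391). Juvenile astrocytes held Vcan at 18.5, 26.5 and 15.2 CPM. Sparcl1 went from 79.96 and 89.1 CPM to 197, 288 and 428 CPM (1.82 ± 0.35), a level that granule cells of the same ages also had (408, 369 and 357 CPM). Astrocytes of these ages held Sparcl1 at 5015, 3552.5 and 4267 CPM. The proteoglycans Cspg5 (0.67 ± 0.30) and Ptprz1 (0.38 ± 0.28) were higher at every juvenile age than at P0 and P5 but did not pass the test. Among growth factor receptors and their feedback targets, 2 of 11 tested were higher: Pdgfra and Spry2, an inhibitor of receptor tyrosine kinase signalling (1.29), whose call was lost in 10 of 14 alternatives. Of the 9 Notch, BMP and Wnt genes tested, the Notch targets Hes1 (1.61) and Hes5 (1.26) rose. None of 17 neurotransmitter receptors and channels and none of 15 cholesterol synthesis genes passed the test. The cholesterol list had a median of -0.76.

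Some of the largest increases were in genes that another class of the tissue held at similar or higher levels. Mbp, the myelin basic protein gene, was at 26.7 and 21.6 CPM perinatally and at 443, 164 and 256 CPM in juvenile OPC (3.38 ± 0.42). In juvenile granule cells, which make no myelin, it was at 169, 117 and 237 CPM, and in astrocytes at 282, 117 and 256 CPM. Slc17a7, the glutamate transporter of excitatory neurons (2.82), was at 123, 103 and 70.6 CPM in juvenile OPC and at 71.5, 115 and 74.1 CPM in astrocytes. Granule cells of the same ages held Slc17a7 at 594, 730 and 574 CPM. The neuronal elongation factor Eef1a2 (3.02) was at 73.8, 205 and 30.9 CPM in OPC, at 90.5, 351 and 119.7 CPM in granule cells, which are neurons, and at 16.2, 98.1 and 31.1 CPM in astrocytes. Htra1, a serine protease (4.64), was at 73.8, 82.2 and 141 CPM in OPC, at 1209 to 1958 CPM in astrocytes and at 5.69 to 10.4 CPM in granule cells. Faim2, an inhibitor of Fas-mediated death (3.89), was at 98.4, 164 and 132.4 CPM in OPC, below granule cells at 175, 221 and 256 CPM and above astrocytes at 16.2, 12.5 and 17.9 CPM. The membrane proteins Lrp4 (3.61) and Cav2, caveolin-2 (3.53), were at 2.08 CPM or less in granule cells. Lrp4 was at 49.2, 247 and 53.0 CPM in OPC and at 175, 280 and 88.0 CPM in astrocytes. Cav2 differed: OPC held it at 344, 411 and 159 CPM, above astrocytes at 224, 156 and 147 CPM. The glial glutamate transporter Slc1a2 (1.63) was at 566, 452 and 446 CPM in OPC, above granule cells at 295, 302 and 248 CPM. Astrocytes of the same ages held Slc1a2 at 20804, 17962 and 12678 CPM. The summed level of the 10 neuronal markers in OPC was 362 and 1037 CPM at P0 and P5 and 836, 349 and 547 CPM at the juvenile ages, and that of the 9 astrocyte markers 419 and 638 CPM and then 1008, 1068 and 834 CPM. The part of RNA from other cells in these values was not tested.

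Genes of foetal and neural progenitors fell: 7 of 13 tested, of 23 in the list, with none higher and a median log2 fold change of -1.34. Vim, the intermediate filament vimentin, was at 670 CPM at P0 and 108 at P5, had no UMI at P18 or P19, and stood at 35.3 CPM at P23 (-4.06 ± 0.69, edgeR adjusted p = 0.000196). The glial factor Sox9 was at 183 and 103 CPM and then at 24.6, 0 and 53.0 CPM (-1.92 ± 0.49). Fabp7, the fatty acid binding protein of radial glia, was at 5098 and 2734 CPM and then at 1402, 1294 and 1554 CPM (-1.60 ± 0.29). The β-tubulin Tubb2b (-1.91), Marcksl1 (-1.38), the neuronal tubulin Tubb3 (-1.53) and the transcription factor Sox11 (-1.29) fell too. Tubb2b shares 43.1% of its 31-base stretches with other genes such as Tubb2a, so its counts may be split. Of the neuronal markers, Stmn2 fell (-2.16 ± 0.47), from 129 and 331 CPM to 49.2, 0 and 79.5 CPM. Without the OPC that held 3 or more UMIs of other cells' markers, 5 of 13 progenitor genes remained lower at the threshold. The serine transporter Sfxn1 (-2.20) and Nrep (-2.14) were among the 10 largest decreases.

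A few regulators of the cell cycle and of chromatin fell. Cyclin D2, Ccnd2, was at 366 and 271 CPM and then at 73.8, 41.1 and 181 CPM (-1.43 ± 0.38, edgeR adjusted p = 0.0196), and its partner kinase Cdk4 fell by 1.33. They were 2 of 9 cyclin D and inhibitor genes tested. The histone methyltransferase Ezh2 (-1.34), the deacetylase Hdac2 (-1.23) and Hmgb3 (-1.35) were the 3 lower of 15 nuclear factor I and chromatin genes. None of 11 tested G2/M genes and none of 8 tested S phase genes passed the test. In 4 of the 8 S phase genes every juvenile age lay below both perinatal ages, and in 0 above. Of all genes tested, 14.8% lay below and 19.6% above. The S phase list had a median log2 fold change of -0.43.

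Of 78 ribosomal protein genes tested, 60 fell in juvenile OPC, against 3.28% of all genes tested. None rose, and the median log2 fold change was -1.38. The 81 genes of the list together made up 18.8% of OPC UMIs at P0 and 18.7% at P5, and 9.36%, 7.11% and 9.33% at P18, P19 and P23. All other genes together made up the rest, 81.2% and 81.3% of UMIs and then 90.6%, 92.9% and 90.7%. Rpl7 was at 2357 and 2118 CPM and then at 443, 472 and 773 CPM (-2.06 ± 0.30, edgeR adjusted p = 3.24e-05). Rps12 (-2.05) and Rps4x (-2.03) moved alike. These genes have many processed pseudogenes, with 25.8% of the 31-base stretches of Rpl7 found in other genes, so single members are uncertain where reads could be split. Between 46 (without P5) and 66 (sums per library) of them fell in the other settings tried, and 58 of 77 did when each cell was thinned to 1000 UMIs before summing.

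Of 19 translation factors tested, 10 fell and 1, Eef1a2, rose, with a median of -1.29. Eef1a1, which carries transfer RNA to the ribosome, was at 5106 and 4304 CPM and then at 590, 945 and 1068 CPM (-2.55 ± 0.29, edgeR adjusted p = 7.33e-07). Eef1a1 shares 49.8% of its 31-base stretches with other genes, so its counts may be split. Eef1b2 and Tpt1 (both -1.91) and Eef2, the translocation factor (-1.29), fell, while Eif4a2, an RNA helicase of initiation, was at 0.49 ± 0.33 and did not pass. The pseudogene Gm8730 (-3.89), which shares 88.3% of its 31-base stretches with other genes such as Rplp0, is uncertain, since reads could be split. The 13 genes of the mitochondrial genome, whose share is also a sign of RNA quality, made up 5.43% and 5.67% of OPC UMIs at P0 and P5 and 10.9%, 9.84% and 9.04% at P18, P19 and P23. All 13 had a positive log2 fold change (median 0.59). In 12 every juvenile age lay above both perinatal ages, against 19.6% of all genes tested (14.8% lay below). Of the 13, only mt-Atp6 (1.10) and mt-Atp8 (1.77), whose genes overlap each other, passed the test. The stretches of 31 bases shared with other genes, such as Gm10925, were 99.5% for mt-Atp6 and 7.5% for mt-Atp8. The counts of mt-Atp6 may therefore be split. The part of RNA quality in the other changes was not tested. Jun (1.48) and Junb (1.30) rose among 11 immediate early and heat shock genes tested.

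**Figure D3:**
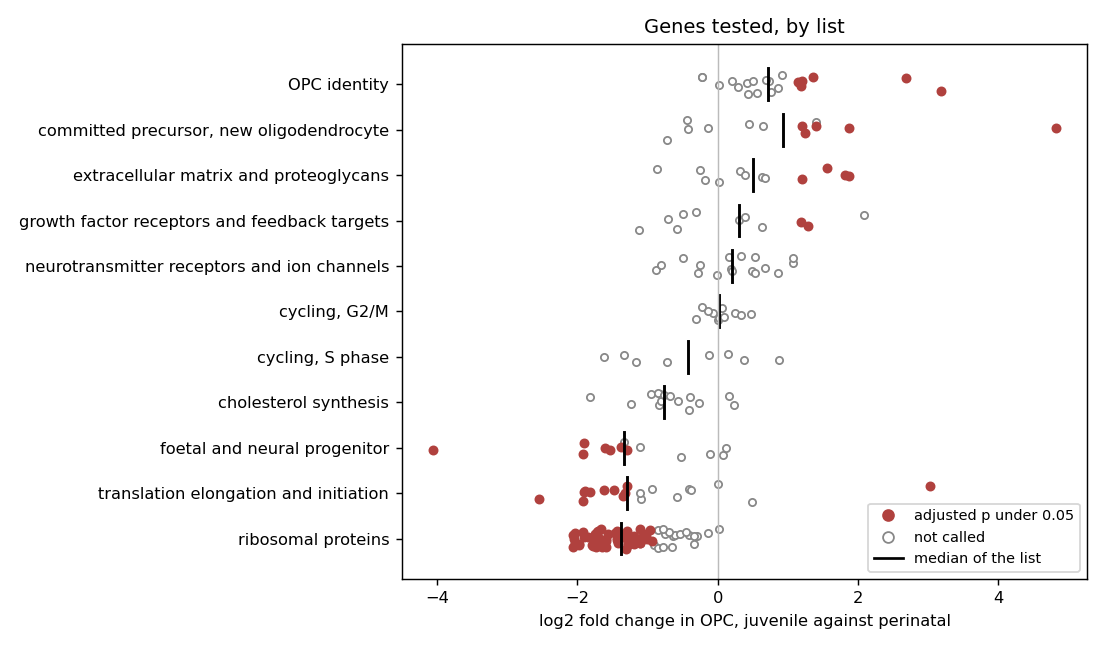
Log2 fold change in OPC (juvenile against perinatal) of every tested gene of 11 lists, filled where the adjusted p was under 0.05, with the median of each list as a bar. Identity and commitment lists lie mostly above 0 (medians 0.71 and 0.92), and the progenitor, translation and ribosomal lists below it (-1.34, -1.29 and -1.38).

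The promoters of 3 ribosomal protein genes are shown. Among those called lower whose window held the motif below, these had the most negative log2 fold changes. The windows run from 100 bases before to 30 bases after the start of the gene (RefSeq, build GRCm38.p6). Capitals mark CTTCCG or its reverse complement CGGAAG.
Rpl4, chr9:64173287-64173416, plus strand: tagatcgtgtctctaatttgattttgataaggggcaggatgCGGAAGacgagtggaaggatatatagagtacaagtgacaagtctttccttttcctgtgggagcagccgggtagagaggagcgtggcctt
Rps10, chr17:27635215-27635344, minus strand: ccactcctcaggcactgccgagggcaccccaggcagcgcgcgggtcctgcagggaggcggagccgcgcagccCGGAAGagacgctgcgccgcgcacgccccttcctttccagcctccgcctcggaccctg
Rps7, chr12:28635924-28636053, minus strand: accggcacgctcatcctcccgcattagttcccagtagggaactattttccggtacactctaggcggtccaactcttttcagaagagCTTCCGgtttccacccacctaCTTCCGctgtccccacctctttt
Rpl4 (-2.03 ± 0.31), Rps10 (-1.92 ± 0.33) and Rps7 (-1.76 ± 0.29) were all lower in juvenile OPC. The way they were chosen fixed both this and the match. The motif, searched on both strands, was in 31 of 72 windows of ribosomal protein genes (43.06%), in 21.85% of windows of genes tested in OPC and in 10.88% of all windows. Among the windows of ribosomal genes called lower it was in 17 of 49 (34.69%). The motif and the 3 genes were chosen after several motifs had been looked at, and a match describes the letters of a window, not a bound site.

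Whether these changes were particular to OPC was tested against classes of the same animals, with age as a block. Newborn neurons (class Neuroblast, a stage on the way to granule cells) kept a high ribosomal share: 18.8% and 20.7% of their UMIs at P0 and P5, and 15.3%, 15.6% and 17.5% at P18, P19 and P23. Astrocytes (class Astro, immature, juvenile and adult clusters added together) went from 15.6% and 12.1% to 4.40%, 3.78% and 4.65%. NFOL went from 21.6% at P5 to 8.995%, 8.56% and 9.60%.

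The change of OPC minus that of neuroblasts differed from 0 for 61 of 4798 genes (1.27%) in edgeR's interaction test, 17 higher (0.354%) and 44 lower (0.917%), while DESeq2 called 11 higher and 76 lower. Of the lower genes, 29 were ribosomal proteins, of 78 tested, with a list median of -0.87. Ccnd2 had an interaction of -1.72 ± 0.37 (edgeR adjusted p = 0.0114): neuroblasts held it at 195, 574 and 589 CPM at the juvenile ages, where OPC held 73.8, 41.1 and 181 CPM. The snoRNP methyltransferase Fbl (-2.13) and the splicing factor Hnrnpa1 (-1.39) were lower in the same way. On the higher side were Vcan (2.79 ± 0.59), Emid1 (3.79), H2-D1 (2.16), the adaptor subunit Ap2a1 (2.26) and Serinc5 (2.36). These calls rest on P0 and the juvenile ages: without P18 or P23 edgeR called 0 genes, though 482 and 379 had an unadjusted p under 0.05, without P19 it called 3, without P0 6 and without P5 65, and without the block for age it called 0, with 333 under 0.05 unadjusted. In counts simulated for this interaction, with the same set spread for every gene, edgeR called 14 of 85 genes changed by 2 on the log2 scale. It called none of those changed by 1.

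**Figure D4:**
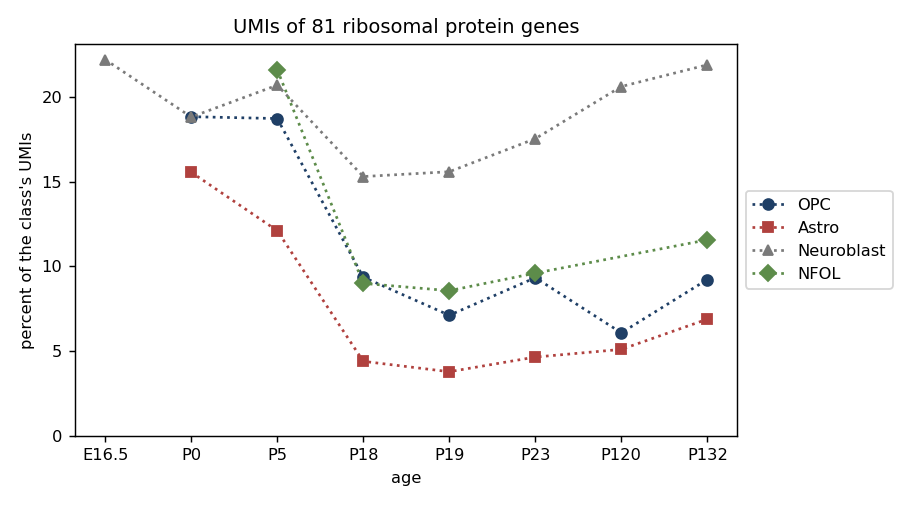
Percent of a class's UMIs that come from 81 ribosomal protein genes, at each age with 20 or more cells of the class (1 point per age and class; NFOL has no point at P120). OPC, NFOL and Astro drop between P5 and P18, OPC from 18.7% to 9.36%, while Neuroblast stays at 15.3% or more.

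Against astrocytes, the ribosomal list did not stand apart: 1 of 78 genes, Rpl13, passed the interaction test, and the list median was 0.19. In counts simulated for this interaction, with the same set spread, edgeR called 9 of 91 genes changed by 2 on the log2 scale. It called 0 of 93 changed by 1, so few calls alone do not show equal changes. In all, 466 of 9530 genes were called (4.89%), 249 higher (2.61%) and 217 lower (2.28%) in the change of OPC minus that of astrocytes (edgeR). Among the genes named here, the widest gaps were in immediate early genes. Of 12 immediate early and heat shock genes tested, 10 were higher, all of them immediate early genes. Jun was at 396 and 308 CPM in perinatal OPC and at 935, 1191 and 1104 CPM in juvenile OPC, but in astrocytes at 1499 and 1027 CPM and then at 60.001, 128 and 106 CPM (interaction 4.87 ± 0.33). Junb differed alike (5.10 ± 0.39). These genes respond to tissue dissociation, and the part of that step was not tested. Sox9 was lower in OPC (-2.86 ± 0.48, edgeR adjusted p = 3.73e-07), while astrocytes held it at 318 and 441 CPM and then at 607, 629 and 643 CPM. Vcan was higher (4.12 ± 0.40): it rose in OPC, while astrocytes went from 107 and 148 CPM to the 18.5, 26.5 and 15.2 CPM given above. The tetraspanin Cd9 (3.28) and the cholesterol exporter Abca1 (3.17) were higher as well. Of 20 identity genes 8 were higher, and 11 of 13 genes of the mitochondrial genome were lower. In this fit and the adult one against astrocytes, edgeR estimated 1 spread shared by all genes at a given level, so single genes that vary more than that may be called too easily.

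Division did not fade evenly with age in OPC. A cell was counted as cycling where it held 3 or more UMIs of 30 S phase and G2/M genes after thinning to 1000 UMIs. By that count 18 of 61 OPC were cycling at P0 (29.5%, exact 95% interval 18.5% to 42.6%), 39 of 171 at P5 (22.8%), 6 of 24 at P18 (25.0%), 1 of 27 at P19 (3.70%) and 19 of 65 at P23 (29.2%). In adults 9 of 383 were cycling at P120 (2.35%, 1.08% to 4.41%) and 14 of 61 at P132 (22.95%, 13.2% to 35.5%). P19 and P120 had the lowest shares. With 1 sample per age the difference between single ages has no test, and the interval of P19 (0.0937% to 18.97%) overlapped those of the other ages. At full depth the shares were 59.0%, 50.3%, 33.3%, 7.41%, 41.5%, 4.44% and 24.6% in order of age.

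Intermediate progenitors (class nIPC), a dividing class of which 83.7% or more were cycling at every age with 20 or more cells, gave 27 of 29 at P19 and 42 of 45 at P120, so they cannot show whether other cells divided less at these ages. Astrocytes gave 0 to 4.84% at any age. The 15 G2/M genes together stood at 1534 and 1581 CPM in P0 and P5 OPC. They were at 2115, 246.5 and 2212 CPM at the juvenile ages and at 328 and 1429 CPM at the adult ages. The 15 S phase genes together stood at 1039 and 785 CPM at P0 and P5, and at 615, 205 and 808 CPM at the juvenile ages. At P120 and P132 the S phase genes were at 245 and 427 CPM, below both P0 and P5. P19 is the C57Bl/6 female age, P120 the deeper of the sorted samples, and the cell names of both begin with the same number. Their part in the low shares cannot be told apart.

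**Figure D5:**
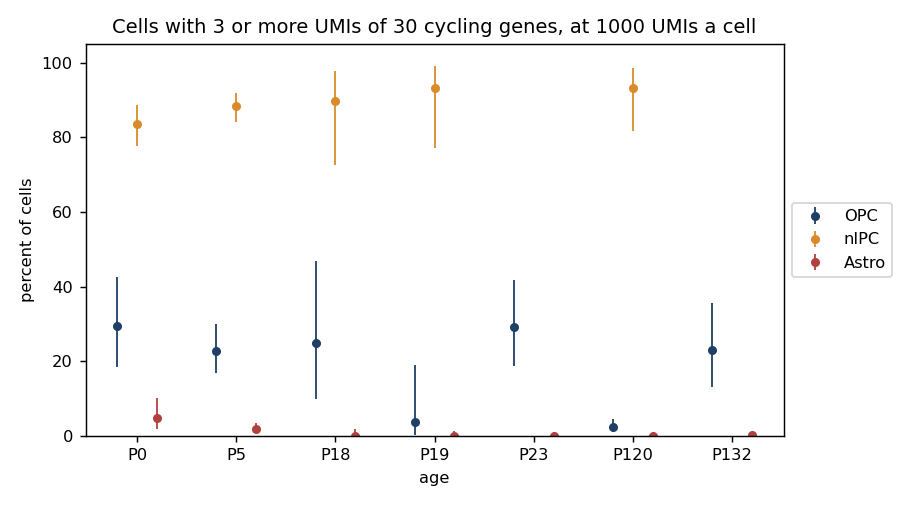
Percent of cells with 3 or more UMIs of 30 cell cycle genes, after thinning to 1000 UMIs a cell, in OPC, intermediate progenitors (nIPC) and astrocytes (Astro); bars are exact 95% binomial intervals over cells. OPC lie between 22.8% and 29.5% at P0, P5, P18, P23 and P132, and at 3.70% at P19 and 2.35% at P120.

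Gpr17 moved in the other direction at P120. After thinning, 257 of 383 OPC at P120 held a Gpr17 UMI (67.1%, exact 95% interval 62.1% to 71.8%). The shares at P0, P5, P18, P19, P23 and P132 were 13.1%, 22.8%, 33.3%, 48.1%, 32.3% and 45.9%. Astrocytes, which should lack the gene, gave no more than 0.901% at any age. Cells with 2 or more Gpr17 UMIs numbered 116 at P120, of which 1 was cycling, and 9 at P132, of which 3 were. At P5 4 of 8 such cells were cycling, so a Gpr17 signal and a cycling signal were found in the same cells.

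Between juvenile and adult ages few genes passed the test, and the number rested on single ages. Of 2092 genes tested, 33 were called (1.58%): 22 were higher in adult OPC (1.05%) and 11 lower (0.526%) with edgeR, and DESeq2 called 10. Without P23 edgeR called 0 genes, with 198 under 0.05 unadjusted, and without P132 it called 111. Pdgfra (0.28 ± 0.39), Gpr17 (0.96 ± 0.41) and the ribosomal list (0 of 77, median -0.15) did not pass. Adult OPC held 6.08% (P120) and 9.22% (P132) of their UMIs in ribosomal genes, and genes of the mitochondrial genome made up 3.16% at P120 and 8.85% at P132, against 9.04% to 10.9% in juveniles.

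Genes higher in adult OPC included Gjc3, at 0, 61.6 and 88.3 CPM in juveniles and 498 and 245 CPM in adults (2.71 ± 0.48, edgeR adjusted p = 0.00249). Ogt, which adds N-acetylglucosamine to proteins, was at 49.2, 103 and 92.7 CPM and then at 551 and 309 CPM (2.52 ± 0.42). The interferon-induced Ifi27 (2.33) and the matrix protein spondin 1, Spon1 (1.55), were higher, with no overlap between the stages. Spon1 alone met the naming rule in the interaction with astrocytes from juvenile to adult (3.27 ± 0.59, edgeR adjusted p = 0.000155), in which 17 of 9827 genes were called (0.173%), 15 higher (0.153%) and 2 lower (0.0204%). The other increases named by the rule were BC023719 (5.00), PISD (2.72), Gm8730 (2.53), Gm6483 (2.45), Ccdc85b (2.42), Gm21092 (2.28) and Tmem243 (2.21). Of these, Gm8730, Gm6483 and Gm21092 are annotated pseudogenes that share 88.3%, 64.5% and 93.3% of their 31-base stretches with other genes, and their values are uncertain. BC023719, an antisense gene, shares 45.0% of its stretches and is uncertain too. PISD was not found in the gene models used, so the stretches it shares are not known.

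Of the 11 genes lower in adult OPC, the tubulin Tubb4b (-2.35) had the largest decrease. Hspa5, the chaperone BiP of the endoplasmic reticulum, was at 344, 329 and 238 CPM in juveniles and at 76.4 and 85.3 CPM in adults (-1.71 ± 0.40, edgeR adjusted p = 0.0313). Its partners Dnajb11 (-1.82) and Hsp90b1 (-1.57), the cytosolic Hspa8 (-1.60) and the chaperonin subunit Cct7 (-1.52) fell too. Cd9 was at 1008, 863 and 980 CPM and then at 220 and 288 CPM (-1.81 ± 0.39). Cacybp (-1.74) and the mitochondrial ADP/ATP carrier Slc25a5 (-1.70) were lower as well. Line, sorting and age cannot be told apart in any of these values. Tubb4b, Slc25a5 and Hspa8 share 48.6%, 49.4% and 43.5% of their 31-base stretches with other genes, so their counts may be split.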

How the data were processed

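Per the labels' protocols, dentate gyri were dissected from brain slices and digested with papain, and adult hGFAP-GFP cells were sorted for GFP. The authors deposited UMI counts of 27933 genes in 24185 cells, with age, strain, sex and cluster of each cell. Per the submitters' processing notes, Cell Ranger and the build mm10 were used; their settings, the cell filters and the clustering method are not given in the sources used here. Counts are whole numbers with no normalization, and 0 columns were left over. The labels divide some ages into numbered parts, which are not replicates.

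The members and gene lists were chosen with earlier results of these data known. Counts were summed over the cells of a class at an age (20 or more cells), for 11 libraries added together by age, and tested with edgeR 4.0.16 (limma 3.58.1, R 4.3.3): TMM scaling, filterByExpr, glmQLFit and glmQLFTest, two-sided, Benjamini-Hochberg adjusted p under 0.05. SE is the log2 fold change over the square root of F. DESeq2 1.42.0, RLE scaling, no filter, thinning, sums per library and leaving out ages were alternatives. All classes sampled at an age share its animals, which pairs them in the interaction tests. CPM are counts per 1000000 UMIs of a class. The test was checked on simulated counts with 1 set spread for all genes. No doublet caller was run, and OPC with over 3 times the median UMIs of their age were left out in an alternative.

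Named genes passed the threshold with a mean of 50 CPM or more and no overlap between stages; the 10 largest changes each way are given (5 in interactions, where the OPC test had to call the same direction), with members of the lists. Some genes that met this rule are not reported here. Gene models are GENCODE vM21 (GRCm38). Other named genes that share 31-base stretches with further genes include Hmgb3 (33.0%), Hnrnpa1 (29.3%), H2-D1 (26.7%), Eef2 (21.2%) and Fbl (20.7%). Figures used Python 3.11.15 and matplotlib 3.10.9.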

Additional observations from a re-analysis of the deposited data

Results flagged for a closer look

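The tests of a difference between 2 classes singled out the following values, each the change in OPC minus the change in the other class on the log2 scale (edgeR, adjusted p under 0.05). From perinatal to juvenile ages, OPC differed from neuroblasts in 61 genes. Those named by the rule were Emid1 (3.79), Vcan (2.79), Serinc5 (2.36), Ap2a1 (2.26), H2-D1 (2.16), Stmn2 (-2.15), Fbl (-2.13), Sh3gl3 (-2.02), Ccnd2 (-1.72) and Hnrnpa1 (-1.39). OPC differed from astrocytes in 466 genes over the same step. Among them were Junb (5.10), Jun (4.87), Vcan (4.12), Cd9 (3.28), Abca1 (3.17), Sox9 (-2.86), the glutamine transporter Slc38a1 (-1.999), Sfxn1 (-1.40), Tubb2b (-1.26) and Ttc3 (-1.25). From juvenile to adult ages, OPC differed from astrocytes in 17 genes, of which Spon1 (3.27) met the naming rule: astrocytes held Spon1 at 18.5, 31.1 and 20.5 CPM in juveniles and at 1.64 and 9.59 CPM in adults.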

How the results depend on the processing

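In OPC from perinatal to juvenile ages, leaving out 1 age gave 124 (without P0) to 203 calls, against 277. Thinned sums gave 166, thinned cells 166 and sums per library 439. Olig1 (-0.22) changed sign without P18, the range without 1 age being -0.37 to 0.050, with thinned sums (0.025) and with E16.5 entered (0.13). Olig2 (0.20) changed sign without P0, with a range of -0.18 to 0.61. Several single-gene calls were lost in as many alternatives as kept them, or more: Spry2 in 10 of 14, Hdac2 in 10 of 15, Lims2 in 9 of 15, Emid1 in 9 of 16, Gpr17 and Sox10 in 8 of 16 each and Tubb3 in 7 of 14, all with the sign unchanged. For adult against juvenile, leave-one-age-out counts ran from 0 (without P23) to 111 (without P132), against 33: 12 without P18, 106 without P19, 7 without P120. DESeq2 gave 10, thinned sums 3 and 1 fit over all stages 96; thinned cells gave 23 higher and 5 lower. Cct7 lost its call in 9 of 14 alternatives, Hspa5, Hsp90b1 and Spon1 in 8 of 14 each and Cacybp in 6 of 11.

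For the interaction with neuroblasts (61), RLE scaling gave 106, no filter 10, no replicate block 0, and leaving out an age 0 (P18 or P23), 3 (P19), 6 (P0) or 65 (P5). Serinc5 changed sign with thinned sums (-1.16). Each of the 10 named genes of this interaction lost its call in 5 or more alternatives. For astrocytes (466), DESeq2 gave 169, thinned sums 65, no replicate block 121 and leaving out an age 170 (P23), 207 (P0) or 265 (P5) to 452. For astrocytes from juvenile to adult (17), RLE gave 30, DESeq2 1, thinned sums 2, no replicate block 1, and leaving out an age 5 (P18 or P120) or 10 (P23) to 19. The cause of these shifts was not tested. With glial cells as the denominator the OPC share differed by -3.72 percentage points (exact permutation p = 0.6), and without 1 age the share of all cells differed by -1.04 to 0.848 points. Leaving out 1 age kept the difference in the share of the line between -81.8 and -73.5 points. The number shared by the names of P0 and P18 cells, and of P5 and P23 cells, entered as a block without P19, gave 225 calls. The small juvenile sums limit all these tests.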

Other observations

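The sex of the pools could be read in OPC. Xist, the X-inactivation RNA of female cells, had a UMI in 9 of 61 OPC at P0, in 0 of 171 at P5, in 0 of 24 and 0 of 65 at P18 and P23, and in 24 of 27 at P19. At P120 it was found in 228 of 383 OPC (59.5%), although the pool is labelled as 2 males and 1 female, and in 103 of 188 MOL (54.8%). At P132 7 of 61 OPC (11.5%) and 52 of 148 MOL (35.1%) held it. At P120 10 OPC held UMIs of both Xist and a Y-linked gene.

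Cells of the line at P120 held few newly formed oligodendrocytes: 19 NFOL beside 383 OPC and 188 MOL, against 33 NFOL beside 61 OPC and 148 MOL at P132.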
